A study of Mus musculus with 2 samples.

Results

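The 10 genes described here are induced early in a cell's response to a stimulus or to stress. They are the immediate-early genes Fos, Fosb, Jun, Junb, Egr1, Atf3, Ier2 and Zfp36 and the heat shock genes Hspa1a and Hspa1b. They were chosen by symbol, and all 10 were found among the 28523 genes listed for all cells and among the 21544 listed for neutrophils. The data are single-cell RNA sequencing of liver metastases in female BALB/c mice aged 6 to 8 weeks at injection. The metastases grew from the 4T1 line of triple-negative mouse mammary carcinoma. In the shZdhhc17 group the injected cells carried a lentiviral short hairpin RNA that silences Zdhhc17, the gene of a palmitoyltransferase, and in the shSCR group they carried a scrambled hairpin. Both hairpin lines were selected with puromycin, so only the injected cells differed by design and the host's own cells were unmodified. In both groups 250000 cells were injected into the spleen, which was removed after 2 min, and metastases were dissected on day 14. The tissue was digested at 37 °C for 45 min with liberase, a mix of tissue-degrading enzymes. Cells of 3 mice per group were pooled in equal numbers into 1 library, so there is no replicate and the mice cannot be told apart.

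Immediate-early genes are transcribed within minutes of a signal, without new protein synthesis. FOS, FOSB, JUN and JUNB pair up as the transcription factor AP-1, EGR1 and ATF3 are further transcription factors, and ZFP36 (tristetraprolin) binds AU-rich elements in messenger RNAs such as that of Tnf and speeds their decay. HSPA1A and HSPA1B are inducible HSP70 chaperones that the factor HSF1 switches on when proteins unfold. As background, enzymatic digestion of tissue at body temperature is known to induce these genes in many cell types, and several of them are also induced in neutrophils and macrophages by inflammatory signals. All cells here went through the same warm digestion, and no undigested sample was analysed, so digestion and inflammation cannot be told apart by design.

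The libraries held 21511 cells with 172527305 UMIs (molecule counts) in shZdhhc17 and 22860 cells with 214842365 UMIs in shSCR. There were 4328 neutrophils in shZdhhc17, with a median of 1418 UMIs per cell, against 6594 in shSCR with a median of 2464. Of the cell barcode numbers, 609 occurred in both libraries. Levels of single genes per cell, cell type or library were not analysed here. The 10 genes are therefore described by the authors' flags for variable genes, by the authors' marker table for 9 neutrophil clusters, and by the cells of the clusters concerned.

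Nearly all of the 10 genes varied strongly among neutrophils. The authors flagged the 1000 most variable genes for each of 2 sets of cells. Among neutrophils, 9 of the 10 genes carried the flag, against a background of 4.64% of all listed genes. Among all cells, 7 of the 10 carried it, against a background of 3.51%. The 7 genes Fos, Fosb, Jun, Egr1, Zfp36, Hspa1a and Hspa1b were flagged in both sets. Junb, an AP-1 subunit, and Atf3, a stress-induced factor, were flagged among neutrophils only. Ier2, a small nuclear protein gene of the immediate-early group, was flagged in neither set, and no gene was flagged among all cells only. A flag is a yes or no per gene over both libraries together, so it gives neither the direction of a difference nor the cells that carry it.

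Related genes were compared by the same flags. Of 37 genes on a list of further immediate-early genes and some of their regulators, 35 were listed in each set. Of these, 18 were flagged among neutrophils (51.4%) and 12 among all cells (34.3%). The regulators Elk1, Elk4 and Creb1 count in these shares and were flagged in neither set. Those flagged in both sets include Egr3, Nr4a1 and Nr4a3, which encode nuclear transcription factors, and Dusp1, which encodes a phosphatase that switches off MAP kinases. Fosl1, Fosl2, Myc and Klf4 were flagged in neither. Of 22 further heat shock genes, 9 of the 19 listed for neutrophils (47.4%) and 5 of the 22 listed for all cells (22.7%) were flagged. The chaperone genes Hsph1 and Dnajb1 and the stress-induced Hmox1 were flagged in both sets. Hspa5, Hspa8, Hsp90aa1, Hsp90ab1, Hsp90b1 and the co-chaperone gene Bag3 were flagged among neutrophils only. The small heat shock genes Hspb1 and Cryab were flagged among all cells and were not listed for neutrophils. Of 32 inflammatory mediators and NF-kB targets, 25 of the 30 listed for neutrophils (83.3%) and 26 of the 32 listed for all cells (81.2%) were flagged. In each list the flagged share lay above the background. The lists were chosen with earlier results of these data known, so these shares are a description and not a test. They were not tested against each other.

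**Figure D1:**
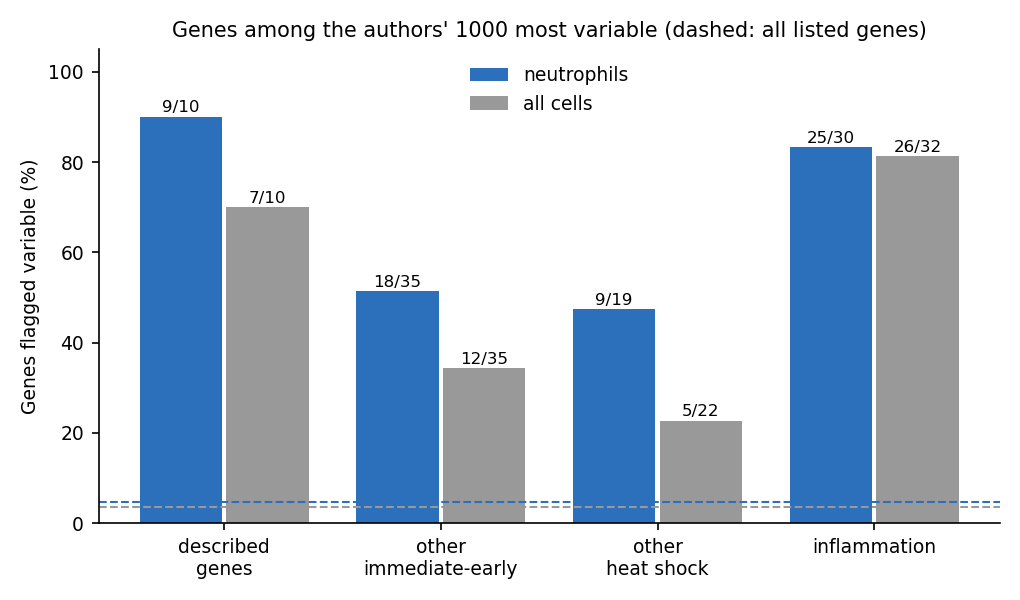
Bars give the percent of listed genes that carry the authors' flag for the 1000 most variable genes, for neutrophils (blue) and all cells (grey), with counts above the bars. The dashed lines are the shares over all listed genes, 4.64% among neutrophils and 3.51% among all cells; of the 10 described genes, 9 were flagged among neutrophils and 7 among all cells.

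Of the 10 genes, 3 were in the authors' marker table, which lists 20 genes for each cluster, and all 3 were markers of the cluster that the authors named Inflammation. The background is 0.0928% of the neutrophil genes for that cluster and 0.835% for any of the 9 clusters. This cluster held 2428 cells, 1236 from shZdhhc17 and 1192 from shSCR, and was compared by the authors with the other 8494 neutrophils of both libraries. All 3 carried the neutrophil flag and so were among the genes used to form the clusters, which makes the marker values a description and not a test. The first of the 3 by the authors' marker score was Junb, whose product forms AP-1 with FOS proteins. Junb had a log2 fold change of 1.39 in the authors' deposited table and ranked 8 of 20 by marker score. It was detected in 76.6% of Inflammation cells and 67.8% of other neutrophils in the authors' deposited table. Zfp36, the RNA decay factor, had a log2 fold change of 1.29 and rank 11 in the authors' deposited table. It was detected in 78.0% of Inflammation cells and 75.1% of other neutrophils in the authors' deposited table. Fos, the prototype of the group, had a log2 fold change of 1.28 and rank 17 in the authors' deposited table. It was detected in 57.3% of Inflammation cells and 54.2% of other neutrophils in the authors' deposited table. The 3 genes thus had similar fold changes, and each was found in most neutrophils inside and outside the cluster. Weighted by cell number, these deposited fractions come to 75.7% of all neutrophils for Zfp36, 69.7% for Junb and 54.9% for Fos.

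The promoter windows of Fos and Junb are shown because both genes were markers of 1 cluster, and those of Hspa1a and Hspa1b because these heat shock genes were not. Each is the 250 bases before the transcription start in RefSeq (GRCm38.p6), written 5′ to 3′ on the strand of the gene. Capitals mark motifs that a search of both strands found, and adjoining or overlapping motifs run together. They are the CCAAT box, the TATA box (TATAAA), to which the general transcription machinery binds, and the GC box (GGGCGG), the site of SP1. They are also the core of the cAMP response element (TGACG), to which CREB and ATF proteins bind. The last are the NF-kB site and the paired units of a heat shock element (GAANNTTC or TTCNNGAA), the site of HSF1.
Fos, chr12:85473640-85473889, plus strand: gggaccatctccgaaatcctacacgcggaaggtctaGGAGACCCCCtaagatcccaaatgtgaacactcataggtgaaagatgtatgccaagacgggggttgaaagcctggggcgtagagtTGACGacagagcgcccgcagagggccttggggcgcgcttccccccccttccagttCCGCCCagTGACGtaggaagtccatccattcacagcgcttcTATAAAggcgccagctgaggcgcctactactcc
Junb, chr8:84978749-84978998, minus strand: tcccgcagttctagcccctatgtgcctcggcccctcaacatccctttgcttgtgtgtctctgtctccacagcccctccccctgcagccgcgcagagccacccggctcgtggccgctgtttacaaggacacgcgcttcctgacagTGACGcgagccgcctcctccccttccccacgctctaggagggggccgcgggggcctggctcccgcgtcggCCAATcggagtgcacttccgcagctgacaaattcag
Hspa1a, chr17:34972157-34972406, minus strand: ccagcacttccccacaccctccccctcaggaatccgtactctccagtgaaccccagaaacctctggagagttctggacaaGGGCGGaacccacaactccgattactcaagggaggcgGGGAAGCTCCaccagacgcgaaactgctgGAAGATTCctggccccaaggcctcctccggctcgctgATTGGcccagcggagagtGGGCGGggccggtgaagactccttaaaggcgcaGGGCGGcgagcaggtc
Hspa1b, chr17:34959239-34959488, minus strand: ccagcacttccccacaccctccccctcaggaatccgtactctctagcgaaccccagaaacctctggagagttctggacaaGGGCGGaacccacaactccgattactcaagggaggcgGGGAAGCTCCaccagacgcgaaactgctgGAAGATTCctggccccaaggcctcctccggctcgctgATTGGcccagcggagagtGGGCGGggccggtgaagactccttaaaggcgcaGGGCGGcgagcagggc
The RefSeq window of Zfp36 lies inside an exon that GENCODE gives to the gene, so a 30-base stretch is given, in which capitals mark a serum response element (CArG box), chr7:28379267-28379296, minus strand.
Zfp36: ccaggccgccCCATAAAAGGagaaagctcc

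A TGACG core was in 4 of the 8 genes with a RefSeq window (Fos, Fosb, Junb and Atf3) and in 17.8% of all 32851 windows of this length. The whole cAMP response element (TGACGTCA), which contains the core, was in none of the 8 windows and in 1.55% of all. The CArG box, the site of serum response factor, was found in the Zfp36 window alone among the 8, and in 1.47% of all windows. Paired heat shock units were in Hspa1a, Hspa1b and Jun and in 12.8% of all windows. The letters of an NF-kB site were in Fos, Fosb, Hspa1a and Hspa1b, and in 7.25% of all windows. An AP-1 site (TGA and TCA parted by 1 base of any kind) was in none of the 8 and in 6.75% of all windows. A GC box was in 7 of the 8 windows, all but Junb, and in 32.7% of all. A CCAAT box was in 4 (Jun, Junb, Hspa1a and Hspa1b) and in 33.8% of all, and a TATA box in Fos alone and in 12.4% of all. No single motif was present in all 3 marker genes. The Hspa1a and Hspa1b windows were identical at 98.8% of bases and held the same motifs, so they are not independent in these counts. The bases G and C made up 58.4% (Fos) to 68.8% (Fosb) of the windows other than that of Zfp36. The median over all windows was 52.4%. The shares over all windows are not matched for this, so no enrichment of a motif is read from the counts. A match describes letters in the window, and sites farther upstream were not searched. Ier2, and Egr1 on chromosome 18, had no window in the table used.

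Detection differed little for the 3 genes while their depth-scaled level was higher in the Inflammation cluster. The detection values are not corrected for depth, and fewer UMIs per cell, as in this cluster, lower detection. In the authors' deposited table, the percent of cells with the gene was higher in the Inflammation cluster by 8.79 points for Junb, 3.09 points for Fos and 2.91 points for Zfp36. As ratios, detection in the authors' deposited table was 1.13 times that of other neutrophils for Junb, 1.06 times for Fos and 1.04 times for Zfp36. The deposited log2 fold changes of the same genes correspond to linear folds of 2.61 for Junb, 2.43 for Fos and 2.45 for Zfp36 in the authors' deposited table. Among all 180 listed markers, Zfp36 had the third lowest difference in detection and Fos the fourth lowest. Only Nfkbia, which encodes the NF-kB inhibitor IκBα, at -0.73 points, and Tnfaip2, a TNF-induced gene, at -0.44 points, were lower in the authors' deposited table. Of the 10 lowest differences, 8 belonged to the Inflammation cluster. The cluster's leading marker did differ in detection: Il1b, which encodes a pyrogenic cytokine, was found in 90.7% of Inflammation cells and 42.1% of other neutrophils in the authors' deposited table. By log2 fold change, the markers nearest to Fos were Tspan13 (1.28), Nfkbia (1.29) and Zfp36 (1.29) in the authors' deposited table. By the percent of Inflammation cells with the gene, those nearest to Fos were Nfkbia (55.8%), Ccrl2 (59.2%) and Tnfaip2 (55.2%) in the authors' deposited table. Nearest to Junb by log2 fold change were Marcks (1.38), Dusp1 (1.37) and Btg2 (1.37) in the authors' deposited table.

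**Figure D2:**
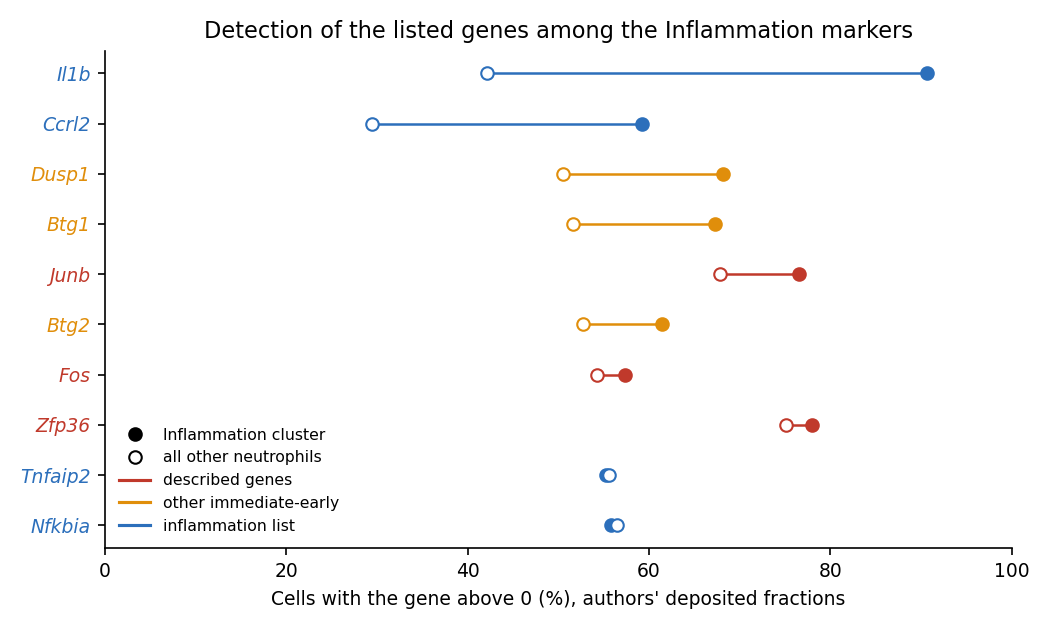
Each line is one of the 10 Inflammation markers that are described genes or on the immediate-early or inflammatory list, with the percent of cells that have the gene in the Inflammation cluster (filled) and in all other neutrophils (open), from the authors' deposited fractions. Fos and Zfp36 (red) lie near the bottom, with the points 3.09 and 2.91 percentage points apart, while Il1b at the top differs by 48.6 points.

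Cells of the Inflammation cluster were shallow, and the deposited fold changes are taken on depth-scaled counts. Their median was 1026.5 UMIs per cell, against 3268 in all other neutrophils. Their median mitochondrial percent of UMIs was 0.0812, the lowest of the 9 clusters over both libraries, against 1.33 over all neutrophils. Within the cluster it was 0 in shZdhhc17 and 0.20 in shSCR, and its part in the marker values was not tested. On the authors' scale of counts per 10000, a single UMI came to a mean of 9.90 per Inflammation cell and 4.54 per other neutrophil, a ratio of 2.18. With the authors' pseudocount of 1, a gene with exactly 1 UMI in every neutrophil would show a log2 difference of 0.98 between this cluster and the rest, if cells are averaged before the logarithm. The deposited log2 fold changes of Fos (1.28), Zfp36 (1.29) and Junb (1.39) in the authors' deposited table lie above that value. That value holds the count at 1 UMI whatever the depth of the cell. A higher scaled level in shallow cells is thus built into it. It is neither an estimate of what depth gave nor an upper bound on what depth could give for these genes. They were detected in 54.9% (Fos) to 75.7% (Zfp36) of all neutrophils, not in every cell, and how the authors averaged cells is not fully known. Nothing is therefore read from the difference. Within the libraries the ratio was 2.07 in shZdhhc17 and 2.13 in shSCR. The cluster named Hypoxia/Angiogenesis was nearly as shallow, with a median of 1159 UMIs and a ratio of 1.77. The median difference in detection over the 20 markers was 10.8 points for Inflammation, against 33.6 points for Hypoxia/Angiogenesis, in the authors' deposited table. The depth of the other 7 clusters lay between medians of 1854 and 18559 UMIs. How much of the fold changes of Fos, Junb and Zfp36 goes with depth was not tested, since no count per cell was used.

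**Figure D3:**
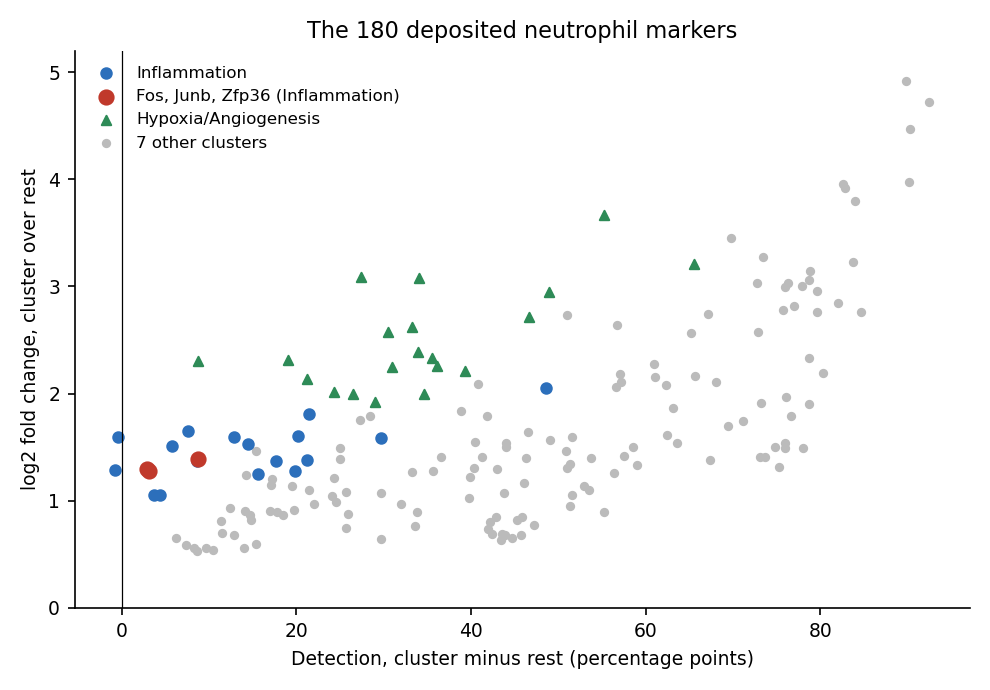
Each point is one of the 180 deposited markers, with the difference in detection between its cluster and the rest (x axis, percentage points) and the log2 fold change (y axis). Fos, Junb and Zfp36 (red) lie at 2.91 to 8.79 points with log2 fold changes of 1.28 to 1.39, while the markers of Hypoxia/Angiogenesis (triangles) lie at 8.70 points or more.

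**Figure D4:**
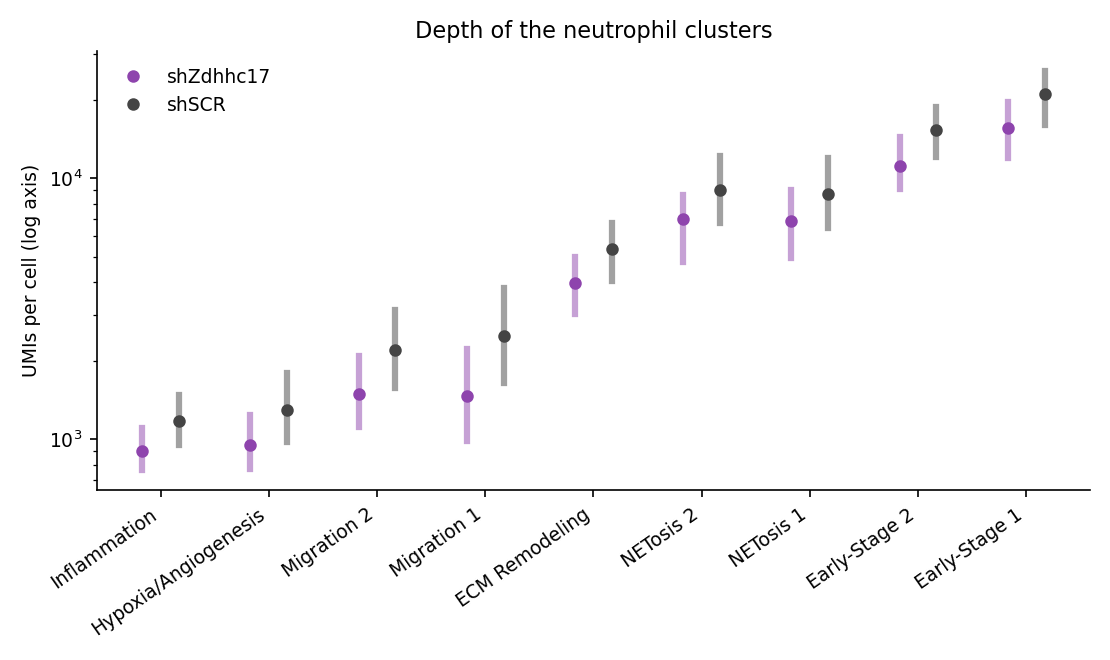
Points are median UMIs per cell and bars span the quartiles, on a log axis, for each neutrophil cluster in shZdhhc17 (left of each pair) and shSCR (right). Inflammation was the shallowest cluster in both libraries, at a median of 906 in shZdhhc17, against 1175 in shSCR.

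The 20 Inflammation markers held both immediate-early and inflammatory genes. Both lists were chosen with earlier results of these data known, so the counts are a description and not a test. For neutrophils, 35 genes of the further immediate-early list and 30 of the inflammatory list were listed. The background for this cluster is 0.0928% of the neutrophil genes. Besides the 3 genes above, 3 further immediate-early genes were listed: Dusp1, and Btg1 and Btg2, which encode antiproliferative proteins. In the authors' deposited table their log2 fold changes were 1.37 for Dusp1, 1.37 for Btg2 and 1.25 for Btg1. Their detection was higher by 17.7 points for Dusp1, 15.6 points for Btg1 and 8.63 points for Btg2 in the authors' deposited table. From the inflammatory list, 4 genes were markers of this cluster, namely Il1b (log2 fold change 2.05), Ccrl2 (1.58), Tnfaip2 (1.59) and Nfkbia (1.29) in the authors' deposited table. The remaining 10 were on none of the lists, among them the granulocyte colony-stimulating factor receptor gene Csf3r. The inflammatory chemokine genes Cxcl2 and Cxcl3 and the interleukin 1 antagonist gene Il1rn were markers of Hypoxia/Angiogenesis. Their log2 fold changes were 2.72 for Cxcl2, 3.09 for Cxcl3 and 2.25 for Il1rn in the authors' deposited table. Its last listed marker score was 0.937, above the Inflammation scores of Junb (0.701), Zfp36 (0.630) and Fos (0.534) in the authors' deposited table, so their absence from its list says nothing about their level there.

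The other 7 genes, Fosb, Jun, Egr1, Atf3, Ier2, Hspa1a and Hspa1b, were markers of no cluster. The table stops at 20 genes, and the last Inflammation marker had a marker score of 0.516, so any of these 7 that the authors tested scored lower there. In the other clusters the last listed marker score lay between 0.229 in Migration 1 and 2.42 in Early-Stage 1. Absence from the table therefore does not show an equal level. No heat shock gene was among the 20 Inflammation markers, where the background of 0.0928% leaves few genes of any list, so nothing is read from that. The heat shock list had 3 markers, all in Early-Stage 1, a cluster led by the granule gene Mpo: Hsp90ab1 (log2 fold change 3.80), Hsp90b1 (3.14) and Hspa8 (2.78) in the authors' deposited table. These encode chaperones that cells also make without heat stress. In the authors' deposited table, Hsp90ab1 was detected in 98.2% of Early-Stage 1 cells and 14.3% of other neutrophils. Hsp90b1 was detected in 99.0% of Early-Stage 1 cells and 20.2% of other neutrophils, and Hspa8 in 97.7% of Early-Stage 1 cells and 22.0% of other neutrophils, in the authors' deposited table. Early-Stage 1 was the deepest cluster, with a median of 18559 UMIs, and depth raises detection; its part was not tested.

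The cluster with Fos, Junb and Zfp36 as markers was unevenly spread between the libraries and over depth. Its share was 28.6% in shZdhhc17 (exact 95% interval 27.2 to 29.9), against 18.1% in shSCR (17.2 to 19.0). No Inflammation cell had more than 3159 UMIs in shZdhhc17 or 3933 in shSCR, while 28.6% of shZdhhc17 neutrophils and 39.6% of shSCR neutrophils lay above 3933. Neutrophils were therefore split into 10 classes of equal size by UMIs. In the lowest class (up to 815 UMIs) the share was 59.2% in shZdhhc17 (55.6 to 62.8), against 38.6% in shSCR (33.6 to 43.9). In the fourth class (1197 to 1492 UMIs) it was 34.7% in shZdhhc17 and 41.1% in shSCR, with overlapping intervals. In the fifth class (up to 1996.5 UMIs) it was 19.3% in shZdhhc17 and 27.7% in shSCR. In the sixth class (up to 3106.4 UMIs) it was 4.15% in shZdhhc17 and 10.2% in shSCR. The share was thus higher in shZdhhc17 with separate intervals in 2 classes, lower in 2, and had overlapping intervals in 6. Of those 6, classes 8 to 10 held no Inflammation cell in either library, so only 7 classes could differ. Every one of the 9 clusters had a lower median of UMIs in shZdhhc17 than in shSCR. For Inflammation it was 906 against 1175, and for Hypoxia/Angiogenesis 954 against 1295. The same class therefore need not hold like cells of both libraries, and the shares by class are not corrected for this. Among neutrophils of at least 1093 UMIs, the ratio of shares (shZdhhc17 over shSCR) was 0.924, with a log-normal 95% interval of 0.817 to 1.04 that includes 1. Among all neutrophils it was 1.58 (1.47 to 1.69). The intervals cover counting error only. With 1 pooled library per group there is no test between groups, and whether Fos, Junb or Zfp36 differed between the libraries within the cluster was not analysed here.

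**Figure D5:**
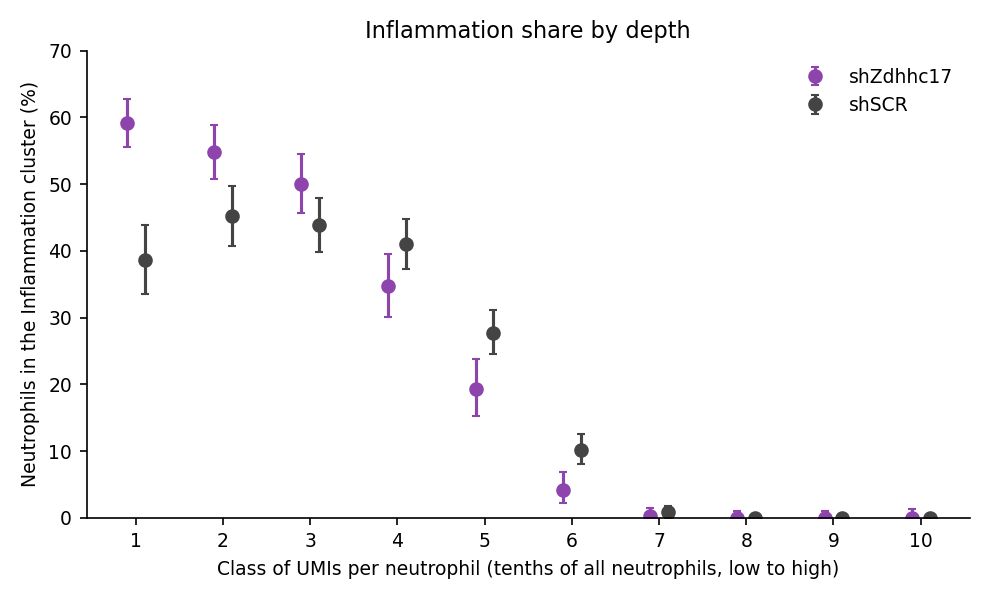
Points give the percent of neutrophils in the Inflammation cluster within each of 10 classes of UMIs per cell, for shZdhhc17 (left) and shSCR (right), with exact 95% intervals. The share was 59.2% in shZdhhc17 and 38.6% in shSCR in the lowest class, and 4.15% in shZdhhc17 and 10.2% in shSCR in the sixth.

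The 10 genes share compact structures. All 10 had 4 or fewer exons in their principal GENCODE M21 transcript, as did 29.6% of the 19793 protein-coding genes compared, and 5 (Jun, Junb, Ier2, Hspa1a and Hspa1b) had 1 exon, as did 4.19%. Gene length here is the whole GENCODE span of a gene, not that of its principal transcript. The median was 3427 bases for the 10 genes, against 19850 for all protein-coding genes. Atf3, at 47744 bases, was the 1 gene of the 10 above 19850. The RefSeq window of Atf3 (chr1:191183334-191183583) lies inside its span and not at the 5′ end. On GRCm38, Fos spans chr12:85473890-85477273 on the plus strand. On minus strands lie Junb at chr8:84974484-84978718, Ier2 at chr8:84661331-84662852, Zfp36 at chr7:28376784-28380253, Fosb at chr7:19302696-19310051, Jun at chr4:95049034-95052222 and Atf3 at chr1:191170296-191218039. Hspa1a (chr17:34969190-34972156) and Hspa1b (chr17:34956436-34959238) are neighbours on the minus strand of chromosome 17, 9951 bases apart.

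AU-rich motifs were counted in the messages of these genes, since ZFP36 binds AU-rich elements. In the 3′ UTR, the nonamer TTATTTATT was present in 2 of the 10 genes, Fos and Zfp36, and in 7.08% of all protein-coding genes. The pentamer ATTTA occurred 4 times in Fos and Jun, 3 times in Zfp36 and Atf3, 2 times in Junb, Egr1 and Hspa1b, and 1 time in Fosb. Ier2 and Hspa1a had none, as did 37.6% of all protein-coding genes, and the median over all was 1. The pentamer occurred 3 or more times in 4 of the 10 genes and in 33.1% of all, so nothing is read from it. A match describes letters, and binding by ZFP36 was not tested. Short stretches with these motifs are shown for the 3 marker genes, with ATTTA in capitals (DNA letters, 5′ to 3′).
Fos: tcaATTTATTTAttaag
Zfp36: tttATTTAtgacgactttATTTAttgta
Junb: tgtATTTAaca

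Hspa1a and Hspa1b are near copies in their coding sequence and less alike at their 3′ ends. Their coding sequences were identical at 99.6% of the 1926 aligned bases, and the printed promoters at 98.8% of 250 bases. Their 3′ UTRs, of 810 bases in Hspa1a and 643 in Hspa1b, matched at 68.4% of 591 aligned bases, and the last 300 bases of the transcripts at 63.7% of 262 aligned bases. With gaps counted as differences, the match was 46.9% for the 3′ UTRs and 49.4% for the last 300 bases. How the authors' counting assigned reads shared by Hspa1a and Hspa1b is not given in the sources used here. Whether the variable flags of these genes rest on separate reads is therefore uncertain and was not tested.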

How the data were processed

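Cell barcodes came from the BD Rhapsody pipeline, and the authors removed ambient RNA, clustered cells, re-clustered selected sets and labelled them by marker genes, per the file headers. Symbols follow GRCm38 (mm10). The submitters' processing notes list Seurat 4.1.0. The deposited cell tables give counts (UMIs and genes for each cell) and the mitochondrial percent of a cell's UMIs. The authors' marker table gives, per the file headers, log2 fold changes from Seurat's FindMarkers on counts per 10000 with a pseudocount of 1, the fraction of cells with the gene, a specificity score and a marker score (log2 fold change times specificity). It pools both libraries, gives no p-value, and lists markers with higher levels only. The gene tables hold flags, and expression per gene and cell was not analysed here, so the planned levels and thinning were not computed.

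The 10 genes and 3 lists (90 genes) were chosen with earlier results of these data known. All 10 genes, every list gene in the marker table and the nearest markers were to be named. Some results are not reported here. Cyr61 and Ctgf were not listed under these symbols. Shares have exact (Clopper-Pearson) 95% intervals from scipy 1.17.1. These reflect counting error alone, as each group is 1 library. No doublet caller was run, and the authors' neutrophil labels were used. Gene models and 3′ UTRs came from GENCODE M21 and promoters from RefSeq, both GRCm38; all 10 symbols matched the first and 8 the second. Hspa1a and Hspa1b were aligned globally with Biopython 1.88. Motif search and intervals were tested on simulated data. The alternatives were other marker limits and rankings, protein-coding genes only, other denominators and filters, matching on UMIs, and search on 1 strand.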

Additional observations from a re-analysis of the deposited data

How the results depend on the processing

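The number of the 10 genes in the marker table stayed at 3 among markers with a log2 fold change of 1 or more, and was 1 (Junb) among the first 10 of each cluster by marker score, since fewer markers enter. The counts of 9 genes (neutrophils) and 7 genes (all cells) with the variable flag were the same among protein-coding genes only, with backgrounds of 5.83% and 4.66%. The share ratio of the Inflammation cluster (shZdhhc17 over shSCR, 1.58) was 1.10 with all cells as denominator and 1.27 at a mitochondrial percent at or below the median. After matching within 10 classes of UMIs it was 1.09. It was 0.924 (0.817 to 1.04, which includes 1) when only neutrophils of 1093 UMIs (the lower quartile) or more were kept. That limit lies between the cluster's medians of 906 in shZdhhc17 and 1175 in shSCR. Every neutrophil cluster had a lower median in shZdhhc17, so cells matched on UMIs, or kept by this limit, need not be alike in the libraries. The cause of the change in ratio was not tested. By specificity score Junb ranked 5, Zfp36 9 and Fos 14, against 10, 14 and 17 by log2 fold change. On 1 strand, a CCAAT box was in 2 promoters in place of 4, and in 19.1% of all windows in place of 33.8%. A GC box was in 4 promoters in place of 7, and in 20.5% of all windows in place of 32.7%. The TGACG core was in 3 in place of 4 (10.5% of all windows in place of 17.8%). The NF-kB site was in 3 in place of 4 (5.00% in place of 7.25%). Alternatives on levels per cell type and library were not run. No paired analysis was possible because each group is 1 pooled library, and no replicate could be left out.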
